A study of Mus musculus with 33 samples.

Results

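The conditional and the germline deletion of Irf8 were compared gene by gene in sorted microglia of mice at 3 months of age. For each gene, the effect in the conditional deletion (libraries labelled Cre minus libraries labelled flox) was set against the effect in the germline knockout (IRF8KO minus WT), and genes were sorted by whether they moved the same way or opposite ways. Genes were kept when their mean in the libraries labelled flox was at least 5 CPM (reads of a gene scaled to the library's size and composition). This left 10535 member genes of 17123 that had enough reads to be tested and of 54146 in the files. The edge of that rule lay between Gm13710, Hsdl2 and Ppp4r4 at just over 5.00 CPM and Dclre1a, Atp2a3 and Piga at 4.99 to just under 5.00 CPM. Because the rule reads the flox libraries, a gene that is low there and high in the libraries labelled Cre could not enter. The members were chosen by a measured value, the flox level, and sorted by the log2 fold changes of these 4 groups. The counts of genes in the sort are therefore descriptions and carry no test.

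IRF8 is a transcription factor of the interferon regulatory factor family. It binds DNA weakly alone and pairs with ETS factors such as PU.1, or with BATF and AP-1 factors, at composite sites. In the brain it is made by microglia, the resident macrophages, where it supports their identity genes and the genes of antigen presentation, and in the bone marrow it steers progenitors towards monocytes and dendritic cells and away from neutrophils. A germline knockout lacks it in all of these cells throughout life, whereas an induced deletion removes it from cells that have already become microglia.

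The germline experiment held 4 WT and 4 IRF8KO libraries. The conditional experiment held mice with floxed Irf8 alleles, 3 libraries titled WT whose genotype label names only the floxed allele (called flox here) and 4 titled Cre, which also carry a tamoxifen-inducible Cre recombinase under the Cx3cr1 promoter. Both of these groups received tamoxifen on 5 consecutive days from postnatal day 12, so the flox libraries are the treated control, while no treatment is labelled for the germline groups. The Cx3cr1 promoter is active in microglia and also in other macrophages and some monocytes. The series' design text names a Rosa26 yellow fluorescent reporter and a sort on its signal, and how flox animals without Cre were gated is not given in the sources used here. All mice were C57BL/6. Groups at 9 months (WT, IRF8KO, 5xFAD and 5xFAD/IRF8KO, where 5xFAD is a transgenic amyloid model) and a Batf3 knockout with its own WT at 3 months, 3 libraries each, served as libraries that the sort did not use. Microglia were isolated from each brain, per the labels, but no label ties a library to an animal, so the spread between libraries may be partly technical.

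The libraries differed in quality and content between the experiments. Counts in genes were 7896520 to 9285014 in the libraries labelled flox, 8218106 to 11177375 in those labelled Cre (replicates 2 to 4), 2305663 to 16697746 in WT and 5957998 to 13070110 in IRF8KO. The biological coefficient of variation was 0.23 in the conditional and 0.809 in the germline experiment, so a germline difference had to be larger to be called. Microglial markers (10 genes, summed) took 34510 to 36200 CPM in the flox libraries, 28560 to 34910 in those labelled Cre, 11870 to 22050 in WT and at most 11270 in IRF8KO. Neutrophil markers (13 genes) took 15.8 to 110 CPM in flox and 0.203 to 42.2 CPM in Cre, against 8916 to 54200 CPM in WT and 81230 to 176800 CPM in IRF8KO. Red blood cell markers took 416 to 1871 CPM over the conditional libraries and 9130 to 103300 CPM over the germline ones, and oligodendrocyte markers 260 to 443 CPM against 3224 to 63200 CPM. Monocyte markers took 8.40 to 19.8 CPM over the conditional libraries, 550 to 2591 CPM in WT and 5959 to 14170 CPM in IRF8KO, so that neutrophil and monocyte markers moved with the germline genotype. In such bulk libraries, fewer cells of a type and less RNA per cell cannot be told apart. Every animal is labelled female, and all 7 conditional libraries had Xist alone above 10 CPM, but in 3 WT and all 4 IRF8KO libraries only Y-linked genes passed that level. Effects of the kind of deletion, of sex and of tamoxifen cannot be told apart between the experiments.

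The targeted gene was read in every library. Irf8 (ENSMUSG00000041515.10, chromosome 8, 120736358 to 120756694, plus strand of GRCm38, overlapping Gm20388) had 1050, 1178 and 948 CPM in the flox libraries and 409, 345 and 476 CPM in Cre replicates 2, 3 and 4. WT libraries had 333, 252, 251 and 268 CPM, and IRF8KO libraries 108, 104, 184 and 141 CPM. The groups did not overlap in either experiment, and the log2 fold changes were close, -1.30 ± 0.19 (SE) in the conditional and -1.19 ± 0.31 in the germline comparison. The library labelled Cre replicate 1 had 1125 CPM, inside the flox range and against its label, and the rule left it out. The conditional Irf8 value was taken without that library and is a description. The counts cover the whole gene, and reads over the deleted exon were not analysed here. Reads of Irf8 remained in every library of both deletions.

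Batf3 was higher where Irf8 was lower in the conditional experiment, and lower where Irf8 was lower in the germline one. Batf3, which encodes a leucine zipper partner of IRF8 and is switched on by it in dendritic cells, had 4.14, 4.33 and 1.88 CPM in the flox libraries and 31.9, 63.7 and 43.4 CPM in Cre replicates 2 to 4. WT libraries had 70.2, 29.7, 19.9 and 24.6 CPM of it, against 2.06, 0, 1.24 and 0.363 CPM in IRF8KO. The groups were apart in both experiments, with log2 fold changes of 3.79 ± 0.30 in the conditional and -5.39 ± 0.87 in the germline comparison. Batf3 lies under the 5 CPM minimum in flox and is no member. Cre replicate 1, with its high Irf8, had 1.31 CPM of Batf3 and again resembled the flox libraries. Which conditional libraries carry the deleted exon was not tested, and all values are given as labelled.

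Over the 10535 members, the difference between the 2 effects was called in 907 genes, 570 higher and 337 lower in the conditional effect, beside 6.63% of all genes tested (3.99% higher and 2.64% lower). Calls here are genes with a Benjamini-Hochberg adjusted p under 0.05 in edgeR's quasi-likelihood test over all 17123 genes. The conditional effect was called in 785 members, 445 higher and 340 lower in the libraries labelled Cre (background 5.61%, of which 3.36% higher and 2.25% lower). The germline effect was called in 744 members, 306 higher and 438 lower in IRF8KO (background 5.58%, 2.73% higher and 2.85% lower). These counts come from the contrasts that the sort used and are not read against their backgrounds. Leaving out any 1 library of the conditional experiment left 430 (without flox replicate 1) to 562 (without Cre replicate 3) calls of the difference, and leaving out WT replicate 4 gave 1391. Leaving out any 1 IRF8KO library left 192 (without replicate 1) to 380 (without replicate 2) calls of the germline effect. The median log2 difference over all members was 0.20.

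A minority of the genes called in 1 deletion were also called in the other, and most of those went opposite ways. The overlap was 145 genes, 18.5% of the conditional and 19.5% of the germline calls. Of all members, 7.06% were called in the germline and 7.45% in the conditional effect. Of the 145 genes, 132 moved in opposite directions, 83 higher in the libraries labelled Cre and lower in IRF8KO and 49 the reverse. The other 13 moved the same way, 5 higher and 8 lower. The 2 classes rest on the labels of the conditional libraries: with that contrast read in the other direction, the 132 genes would count as same and the 13 as opposite. In 121 of the 132 and in 13 of the 13 the libraries of the groups did not overlap in either experiment, where 4.18% of all genes tested had no overlap in both (19.1% in the conditional and 16.3% in the germline experiment). The opposite count was 62, 85, 82 and 74 without IRF8KO replicates 1, 2, 3 and 4, and the same-direction count 3, 7, 8 and 6. It was 20 without Cre replicate 3 and 8 without Cre replicate 2. A further 640 members were called only in the conditional effect, of which 206 had the same sign in the germline effect, and 599 only in the germline effect, of which 288 had the same sign in the conditional. The remaining 9151 were called in neither. Across 10528 members with counts in both experiments, the log2 fold changes of the deletions were weakly and negatively related (Pearson's r -0.153, Spearman's rho -0.0791), and the genes share libraries and are not independent replicates.

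**Figure D1:**
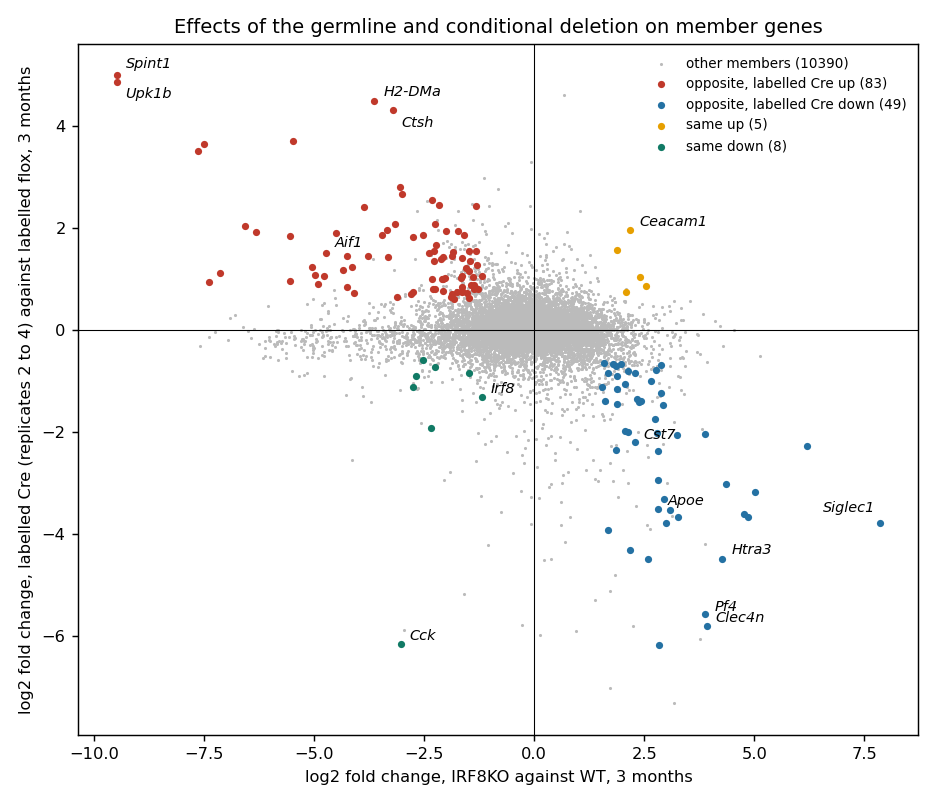
Log2 fold change of each member gene in the germline (x axis) and conditional (y axis) comparison, coloured where both effects were called. The 132 genes with opposite signs fill the upper left and lower right corners, and the 13 with equal signs include Irf8 and Cck at the lower left. A group without counts was set to 3 counts.

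Adding the library labelled Cre replicate 1 ended these calls. With it in the group, no member was called in the conditional effect (785 without it), so that no gene was in either class, while the difference of effects was called in 952 members, of which 802 were among the 907. All 132 opposite genes kept their opposite signs. That library lay nearer to the flox mean than to the mean of Cre replicates 2 to 4 for 744 of the 785 genes of the conditional effect (94.8%) and for 129 of the 132 opposite genes (97.7%), and it fell within the range of the flox libraries for 51 of those 132 and within the range of the Cre libraries for 0. It was not used to choose them.

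The genes that were higher in the libraries labelled Cre and lower in IRF8KO were led by Spint1, Upk1b, Klk8, H2-DMa and Tnfrsf17. Spint1, a membrane inhibitor of serine proteases (ENSMUSG00000027315.13, chromosome 2, 119237362 to 119249527), had 8.39, 4.33 and 3.64 CPM in the flox libraries and 173, 146 and 179 CPM in those labelled Cre. WT had 92.3, 105, 75.7 and 39.9 CPM, whereas all 4 IRF8KO libraries had 0 counts. The libraries labelled Cre were above every WT library of the germline experiment at 3 months, and the flox libraries were below all of them. Spint1 averaged 425 CPM (SD 37.3) in the WT of the Batf3 experiment and 143 CPM (SD 62.0) in WT at 9 months. At 3 months IRF8KO was at least 722-fold below its WT against a floor of 3 counts over the group. Upk1b, a uroplakin of the tetraspanin family, had 9.54, 6.71 and 7.28 CPM in flox against 230, 184 and 239 CPM in Cre, and 37.0, 97.6, 98.2 and 13.9 CPM in WT against 0 counts in IRF8KO (at least 723-fold lower). Tnfrsf17, a receptor for the B cell survival factors BAFF and APRIL, had 6.09, 3.36 and 10.6 CPM in flox and 56.2, 80.8 and 78.7 CPM in Cre. The WT libraries had 61.9, 21.9, 18.1 and 18.6 CPM, and IRF8KO had 0 counts (at least 201-fold lower). Klk8, a kallikrein-related protease whose gene overlaps 2310002F09Rik, differed by 3.65 ± 0.28 on the log2 scale in the conditional and by -7.50 ± 0.99 in the germline comparison. In these 4 genes Cre replicate 1 had 1.67 to 9.29 CPM and lay below 2 or all 3 of the flox libraries.

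That class also held genes of peptide loading, of the lysosome and of complement. H2-DMa, a subunit of the chaperone that loads peptides on MHC class II, had 54.8, 58.9 and 46.6 CPM in flox, 1000, 1084 and 1339 CPM in Cre, while WT libraries had 969, 490, 304 and 180 CPM and IRF8KO libraries 49.0, 35.1, 39.0 and 51.2 CPM. No library of a low group reached any library of a high group, and the flox and IRF8KO levels lay in the same range. The log2 fold changes were 4.48 ± 0.22 and -3.63 ± 0.49 (the gene overlaps Brd2 and others, and reads were counted without strand). Ctsh, a lysosomal cathepsin, went from 104 in flox to 1962 CPM in Cre on average and from 967 in WT to 115 CPM in IRF8KO, log2 4.30 and -3.22. Ly86, which encodes the MD-1 partner of a Toll-like receptor homologue, had log2 values of 1.11 and -7.15. All 3 genes of the complement component C1q belonged here, C1qa (1.01 and -1.67), C1qb (1.83 and -2.76) and C1qc (0.81 and -2.31). Aif1, which encodes the microglial marker IBA1, had 323, 360 and 325 CPM in flox, 833, 972 and 960 CPM in Cre, while WT libraries had 1236, 717, 443 and 1399 CPM and IRF8KO libraries 20.5, 47.1, 29.2 and 58.5 CPM. Here all flox libraries were above every IRF8KO library and below every WT library of the germline experiment at 3 months. Aif1 averaged 271 CPM (SD 33) in the WT of the Batf3 experiment and 315 CPM (SD 65.6) in WT at 9 months.

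**Figure D2:**
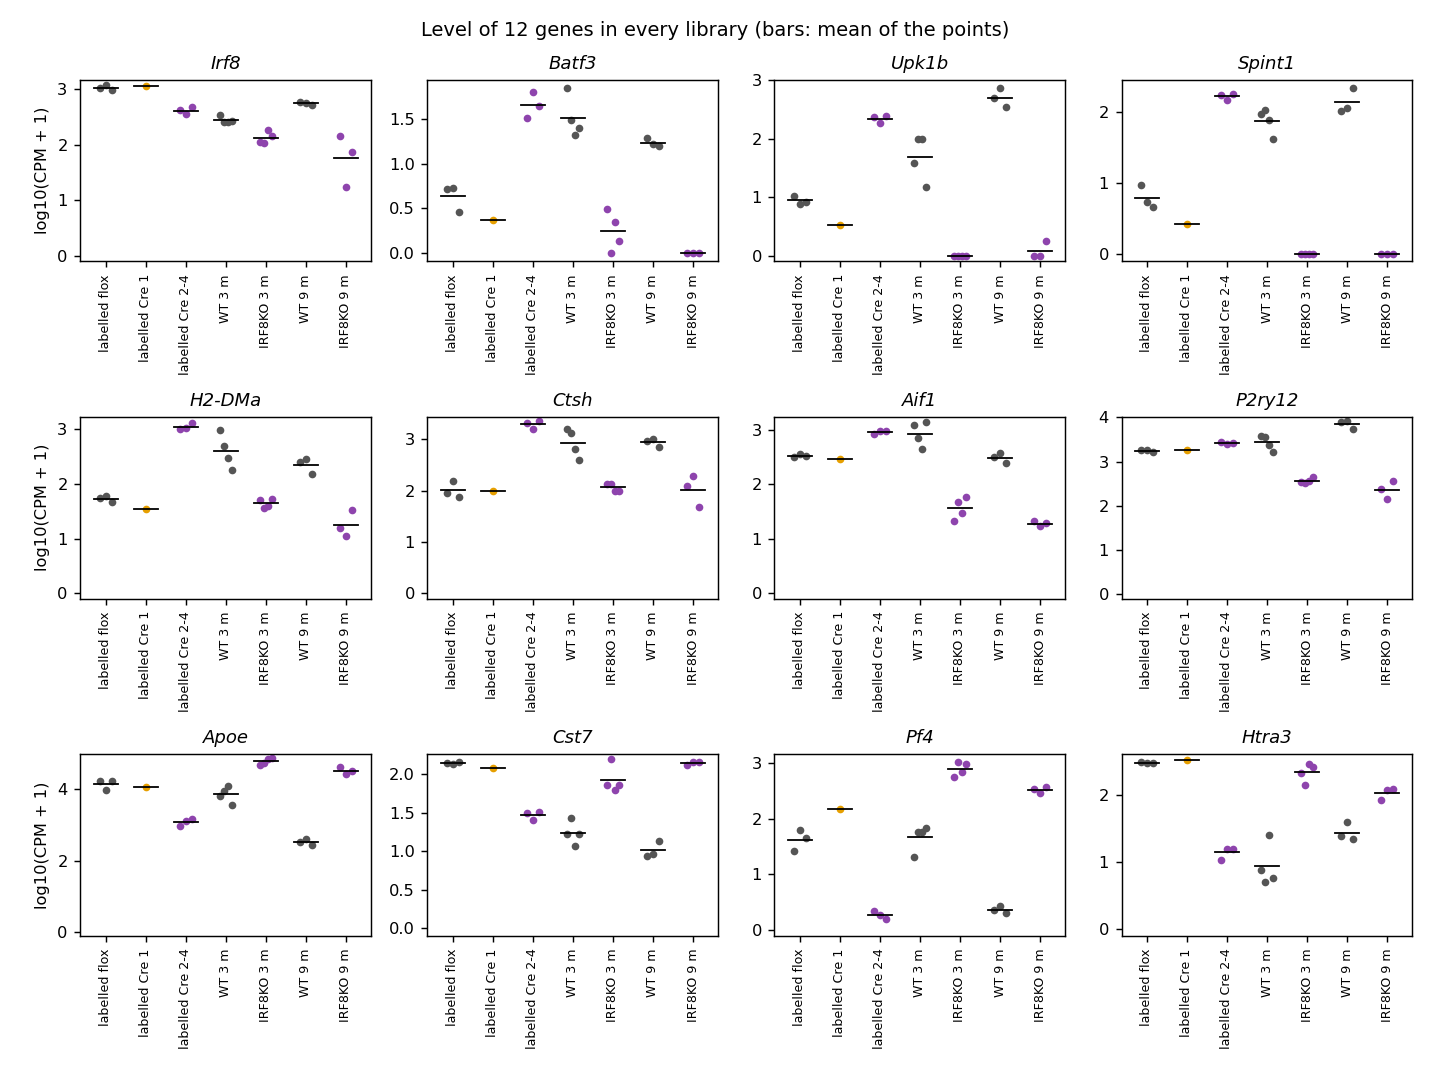
Level of 12 genes as log10(CPM + 1) in every library of the conditional experiment (labelled Cre replicate 1 apart, in orange), the germline experiment at 3 months and the germline groups at 9 months; bars are means. Batf3, Upk1b, Spint1, H2-DMa, Ctsh and Aif1 are high in Cre replicates 2 to 4 and low in both IRF8KO groups, Apoe, Cst7 and Htra3 the reverse. Irf8 is lower in Cre replicates 2 to 4 than in flox but above every WT library of the germline experiment at 3 months. The WT of the Batf3 experiment, which is not drawn, averaged 1052 CPM of Irf8.

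The genes that were lower in the libraries labelled Cre and higher in IRF8KO were led by Htra3, Clec4n, Pf4, Siglec1 and Apoc1. Htra3, a secreted serine protease, had 317, 300 and 308 CPM in flox and 9.89, 14.7 and 14.9 CPM in Cre. WT had 6.64, 3.97, 24.9 and 4.85 CPM, against 216, 143, 289 and 260 CPM in IRF8KO, so that flox and IRF8KO were both high, as was Cre replicate 1 at 335 CPM. Pf4, the chemokine CXCL4, had 25.6, 61.3 and 43.3 CPM in flox and 1.18, 0.879 and 0.559 CPM in Cre, with 19.4 to 67.8 CPM in WT and 564 to 1037 CPM in IRF8KO. Clec4n, the fungal receptor Dectin-2, had 6.90, 5.63 and 3.99 CPM in flox and 0 counts in Cre replicates 2 to 4 (at least 55.3-fold lower). In the germline groups Clec4n had 1.83 to 23.1 CPM in WT and 123 to 213 CPM in IRF8KO. Siglec1, a sialic acid receptor of macrophages, had 15.9, 11.1 and 12.2 CPM in flox, 0.881, 0.769 and 1.02 CPM in Cre, 0 counts in WT, but 17.6, 10.5, 18.9 and 38.1 CPM in the knockout (at least 233-fold higher). Apoc1, an apolipoprotein, had log2 values of -3.66 ± 0.55 and 4.85 ± 0.65. The properdin gene Cfp followed the same pattern (-4.31 and 2.17), as did the mannose receptor gene Mrc1 (-3.02 and 4.35).

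Several of these genes mark border macrophages, the macrophages of the meninges and vessels. Of 10 such markers, 5 were members, and all 5 were lower in the libraries labelled Cre (3.23% of all members) while 4 of the 5 were higher in IRF8KO (2.9% of all members). As members need 5 CPM in flox, a marker low in flox and high in Cre could not enter, so these counts are no test. The summed level of the 10 markers was 548 to 669 CPM in flox, 163 to 353 CPM in Cre, 75.9 to 320 CPM in WT and 1101 to 1609 CPM in IRF8KO, with 1 to 5 of them at 0 in a library. In the WT of the Batf3 experiment it was 667 to 831 CPM. The part of these macrophages in the result was not tested. In the conditional experiment, neutrophil, monocyte and red blood cell markers were at or below 1871 CPM summed in every library used.

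Among the disease-associated genes of microglia, Apoe, Cst7 and Csf1 also had opposite signs in the deletions. Apoe, the main lipid carrier of the brain, had 16870, 9562 and 17060 CPM in flox and 911, 1264 and 1488 CPM in Cre. WT libraries had 6529, 8945, 12670 and 3698 CPM, against 49390, 56220, 71990 and 74110 CPM in IRF8KO. The groups were apart in both experiments, and flox replicates 1 and 3 were above every WT library. Cst7, an inhibitor of lysosomal proteases, had 132 to 142 CPM in flox, 24.2 to 31.0 CPM in Cre, 10.5 to 25.9 CPM in WT and 60.9 to 157 CPM in IRF8KO. Csf1, a ligand of the receptor that keeps microglia alive, had 22.6 to 28.1 CPM in flox, 4.47 to 8.71 CPM in Cre, 2.61 to 9.85 CPM in WT and 25.3 to 47.0 CPM in IRF8KO. Of 27 members of the disease-associated list, 3 were higher and 10 lower in the libraries labelled Cre, and 4 were higher and 8 lower in IRF8KO. Over all members the shares were 4.22% higher and 3.23% lower in Cre, and 2.9% higher and 4.16% lower in IRF8KO. Lpl and Ccl3 of that list were lower in both. Clec7a was called in the germline comparison alone (2.86 ± 0.41), and its Cre libraries spread from 0.0979 to 16.9 CPM.

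Promoters are shown for 4 opposite genes whose windows each carried 1 of the short words searched. The windows of Klk8, Htra3 and Apoe, also opposite genes, held no such word. The windows run from 250 bases before to 50 bases after the RefSeq start on GRCm38.p6, 5′ to 3′ on the gene's strand, and capitals mark the word found. They are Spint1 (chr2:119237110-119237409, plus strand, with the AP-1 word TGANTCA), Tnfrsf17 (chr16:11313559-11313858, plus strand) and Aif1 (chr17:35176003-35176302, minus strand), both with the IRF repeat (GAAA, any pair of bases, GAAA), and Pf4 (chr5:90772185-90772484, plus strand, with the PU.1 core GAGGAAGT).
Spint1: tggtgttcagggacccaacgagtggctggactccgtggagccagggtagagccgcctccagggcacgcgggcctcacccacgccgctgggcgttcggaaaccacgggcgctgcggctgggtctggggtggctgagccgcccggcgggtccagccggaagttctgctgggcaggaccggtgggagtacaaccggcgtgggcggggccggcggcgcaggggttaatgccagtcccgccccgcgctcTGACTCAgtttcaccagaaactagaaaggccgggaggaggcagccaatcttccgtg
Tnfrsf17: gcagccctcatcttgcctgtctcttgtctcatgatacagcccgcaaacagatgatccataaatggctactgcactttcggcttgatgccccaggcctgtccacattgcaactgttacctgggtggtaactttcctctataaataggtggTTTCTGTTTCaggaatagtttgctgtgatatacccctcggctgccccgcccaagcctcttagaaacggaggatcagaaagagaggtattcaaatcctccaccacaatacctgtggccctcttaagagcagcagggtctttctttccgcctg
Aif1: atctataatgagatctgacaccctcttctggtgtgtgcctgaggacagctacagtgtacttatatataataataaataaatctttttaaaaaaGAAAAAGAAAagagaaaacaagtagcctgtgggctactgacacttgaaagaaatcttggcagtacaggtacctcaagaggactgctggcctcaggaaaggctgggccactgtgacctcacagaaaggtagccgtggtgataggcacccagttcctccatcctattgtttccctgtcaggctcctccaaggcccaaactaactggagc
Pf4: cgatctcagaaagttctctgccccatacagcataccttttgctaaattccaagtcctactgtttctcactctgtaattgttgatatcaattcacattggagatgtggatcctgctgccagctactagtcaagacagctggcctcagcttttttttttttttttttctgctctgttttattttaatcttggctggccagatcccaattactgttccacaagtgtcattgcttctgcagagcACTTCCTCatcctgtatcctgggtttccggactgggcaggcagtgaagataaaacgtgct
In Tnfrsf17 and Pf4 the word lies on the other strand and is read there as its reverse complement. RefSeq held promoters for 64 of the 83 genes that were higher in Cre and for 34 of the 49 that were lower. The IRF repeat, searched on both strands, was found in 5 of the 64 (7.81%; Aif1, Ctss, Glul, Selenop and Tnfrsf17) and in 5 of the 34 (14.7%; Ddx58, Fosl2, Pilra, Pilrb2 and Tgfbi), against 3.99% of all 27025 genes with a promoter. The PU.1 core was found in 8 of the 64 (12.5%; among them C1qc, Ctss and Pycard) and in 1 of the 34, Pf4 (2.94%), against 3.69% of all genes. The ETS-IRF composite (GGAA, any pair of bases, GAAA) was found in 0 of the 64 and in 1 of the 34, Pilra, against 3.16% of all genes. The AP-1 word was found in 6 and in 3 genes, 9.38% and 8.82% against 8.97% of all genes. Among the 8011 members with a promoter, the shares were 3.71% for the IRF repeat, 3.74% for the PU.1 core, 3.0% for the ETS-IRF composite and 5.8% for the AP-1 word. Some of the words overlap in their letters, and a match describes the sequence only.

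The 13 genes that moved the same way were a mixed group. The 5 higher in both were Ceacam1, Cnn2, Hk3, Trpm2 and Slc39a11, which encode an adhesion molecule, an actin-binding calponin, a hexokinase, a cation channel and a zinc transporter. Ceacam1 had 8.45 to 8.56 CPM in flox replicates 2 and 3 and slightly more in replicate 1, 36.0, 29.0 and 35.6 CPM in Cre, 36.5 to 56.4 CPM in WT and 182 to 260 CPM in IRF8KO. Its log2 values were nearly equal, 1.96 ± 0.22 and 2.19 ± 0.32, and the libraries of the groups were apart in both experiments. Among the 8 lower in both were Cck, Lpl, Irf8, Prkce and Ccl3. Cck, the precursor of the neuropeptide cholecystokinin, had 359, 310 and 606 CPM in flox and 6.66, 6.15 and 4.47 CPM in Cre, against 38.6 to 177 CPM in WT and 5.99 to 15.1 CPM in IRF8KO. Cre replicate 1 had 449 CPM. The conditional log2 value of Cck was further from 0 (-6.14 ± 0.28 than the germline -3.04 ± 0.52), and it was 1 of the 2 same-direction genes called in the difference. Lpl, which releases fatty acids from lipoproteins, had log2 values of -1.93 ± 0.39 and -2.35 ± 0.49, the kinase gene Prkce -1.12 ± 0.22 and -2.75 ± 0.73, and the chemokine gene Ccl3 -0.91 ± 0.24 and -2.69 ± 0.52. Some of these calls were unstable over 20 other settings. The conditional call was lost in 8 for Slc39a11, 4 for Ccl3 and 3 for Trpm2. The germline call was lost in 8 each for Irf8 and Prkce, 7 for Slc39a11, 6 for Cnn2, 2 for Trpm2 and 1 each for Ccl3 and Lpl. Ceacam1, Hk3 and Cck lost the call of an effect only with Cre replicate 1 added. The Cck difference was no longer called with the replicate number as a block.

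Genes called in the conditional effect alone included 4 with very low levels in the libraries labelled Cre. Ch25h, which makes the oxysterol 25-hydroxycholesterol and overlaps Gm26902, had 121, 197 and 121 CPM in flox, 0.0979, 1.76 and 0.839 CPM in Cre and 130 CPM in Cre replicate 1 (log2 -7.31 ± 0.38). Its germline value was 3.18 ± 1.15. Ifitm2, an interferon-induced membrane protein, had 16.6 to 22.2 CPM in flox and 0.186 to 0.440 CPM in Cre, against 20.6 to 73.1 CPM in WT and 77.2 to 153 CPM in IRF8KO. Cd300ld, an activating receptor, and Oas2, an antiviral enzyme, had log2 values of -5.80 ± 0.50 and -4.19 ± 0.55 in the conditional and 2.24 ± 0.63 and 3.89 ± 1.14 in the germline comparison. Those called in the germline effect alone included Adamts16, Mrc2, Dcx and Ndst3, which had 0 counts in all IRF8KO libraries and were at least 111-fold, 194-fold, 57.9-fold and 51.0-fold lower than in WT. Their conditional log2 values were 0.29 ± 0.26, -0.31 ± 0.24, -0.27 ± 0.33 and -0.13 ± 0.28, and each had over 4 CPM in every library labelled flox or Cre. Their WT means (SD in brackets) were 12.7 (3.31), 13.7 (18.7), 7.82 (3.10) and 6.68 (8.61) CPM, with Ndst3 at 19.6 CPM in WT replicate 4. The germline call of Ndst3 was lost in 5 of 20 other settings. At 9 months Ndst3 averaged 0 CPM in WT and 6.77 CPM in IRF8KO, while Adamts16 and Mrc2 were lower in IRF8KO. Mrc2 encodes an endocytic collagen receptor, and Dcx a microtubule protein best known from young neurons.

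Homeostatic genes, which mark resting microglia, were lower in the germline knockout at 3 months and mostly not lower in the libraries labelled Cre. Of 31 member genes of that list, 14 were lower and 0 higher in IRF8KO, with a median log2 of -1.58, while 6 were higher and 2 lower in Cre, with a median of 0.20. All members together had medians of -0.15 and 0.01. Of all members, 4.16% were lower and 2.9% higher in IRF8KO, and 4.22% were higher and 3.23% lower in Cre. P2ry12, a purinergic receptor that overlaps Med12l, had 1856, 1810 and 1670 CPM in flox, 2824, 2510 and 2620 CPM in Cre, while WT libraries had 3868, 3670, 2355 and 1687 CPM and IRF8KO libraries 354, 330, 367 and 440 CPM. Cre replicate 1 was at 1812 CPM, with the flox libraries. Cx3cr1, the fractalkine receptor, had 962, 1322 and 928 CPM in flox, 1168 CPM in Cre replicate 1 and 2751, 2226 and 2528 CPM in Cre replicates 2 to 4. Its promoter also drives the Cre of this experiment, and its locus overlaps many annotated genes. Sall1, a zinc finger factor of microglial identity, had log2 values of 0.91 ± 0.22 and -4.93 ± 1.10. Siglech was called in the germline comparison alone (-2.19 ± 0.41, against 0.20 ± 0.19), while Tmem119 and Csf1r were called in neither, with conditional values of 0.31 and 0.03. Olfml3 and Fcrls were the 2 homeostatic genes lower in Cre (-0.75 and -1.09). The lower sum of microglial markers in IRF8KO moved with these genes, and its part was not tested.

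Other lists are read beside all members (445 higher and 340 lower of 10535 in Cre, 306 higher and 438 lower in IRF8KO). MHC class II and its loading genes (10 members) had 5 higher and 1 lower in Cre and 0 higher and 4 lower in IRF8KO, and H2-Ab1, which encodes a chain of the class II molecule itself, was lower in Cre (-0.85) while the loading genes were higher. Cd74, the invariant chain, was called in neither comparison (0.00 ± 0.25 and -0.61 ± 0.72). Of 38 lysosomal genes, 9 were higher and 2 lower in Cre, and 1 was higher and 7 lower in IRF8KO, with Ctsz (1.52 and -1.85) and Ctss (0.99 and -2.09) opposite. Of 29 genes of lipid handling, 0 were higher and 11 lower in Cre, and 3 were higher and 2 lower in IRF8KO. Beside Apoe and Apoc1 these were genes such as Pltp (-4.21 in Cre), which encodes a phospholipid transfer protein, and Plin2 (-1.25), which coats lipid droplets. Of 6 C-type lectin receptors, 3 were lower in Cre and 3 higher in IRF8KO. Of 27 interferon response genes, 1 was higher and 7 lower in Cre, Isg15 (-1.07) and Rtp4 (-1.63) among them, and 3 were higher and 1 lower in IRF8KO. Of 18 inflammasome and interleukin-1 genes, 7 were higher and 2 lower in Cre, where Il1a (1.72) and Il1b (-3.66) differed in sign, and 0 were higher and 2 lower in IRF8KO. In the immediate early list of 22, 6 genes were lower in Cre, including Fos (-3.26) and Ier3 (-3.80), and 1 was higher and 2 lower in IRF8KO. TGF-beta signalling had 0 higher and 2 lower of 20 in Cre and no call in IRF8KO, too few calls to set against all members.

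**Figure D3:**
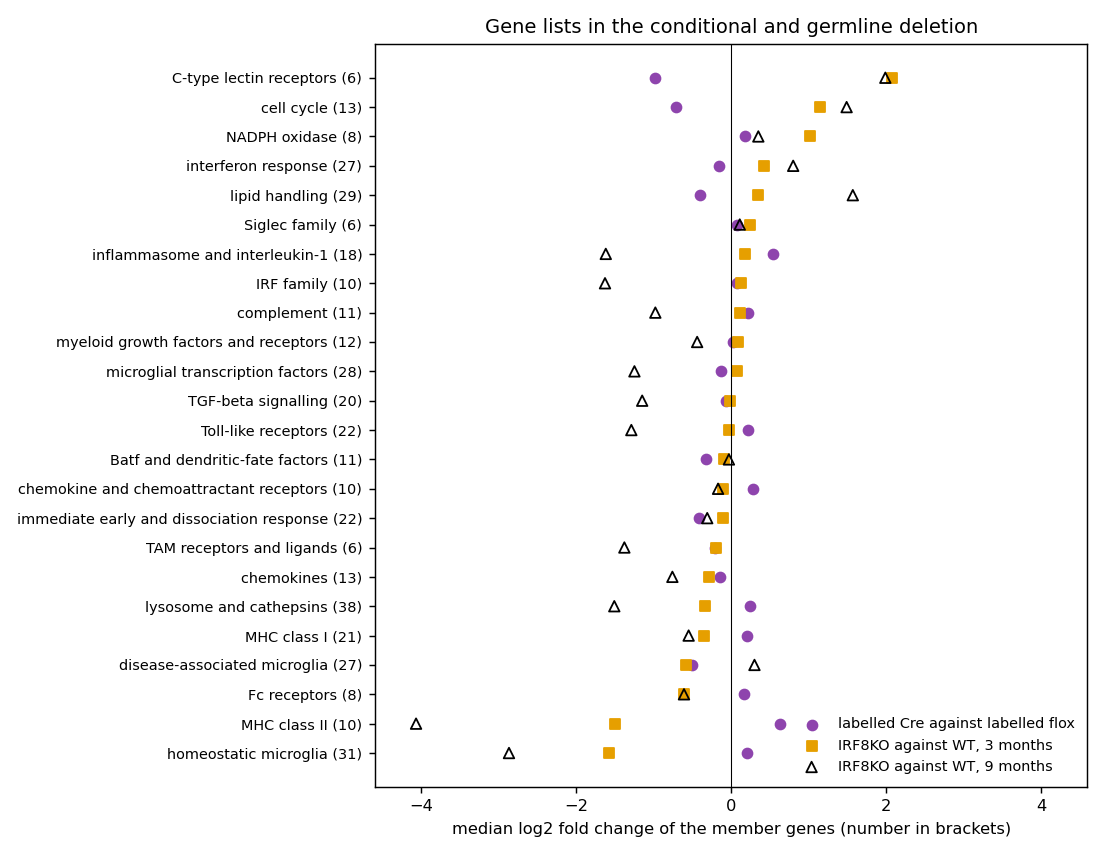
Median log2 fold change of each gene list (number of members in brackets) in the conditional, the germline and the 9-month germline comparison. Homeostatic and MHC class II genes have medians of -1.58 and -1.50 in IRF8KO at 3 months and 0.20 and 0.63 in the libraries labelled Cre, and C-type lectin receptors have the opposite order, 2.07 and -0.99.

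The 9-month libraries, which the sort did not use, were then read for the same genes. The comparison of IRF8KO and WT at 9 months called 28.3% of 14604 genes, 19.6% higher and 8.68% lower, and of the members 18.2% and 8.89%. Of the 83 genes higher in Cre and lower in IRF8KO at 3 months, 58 fell and 1 rose at 9 months (median log2 -2.93). Of the 49 with the reverse pattern, 34 rose and 1 fell (median 2.84). The loss of Irf8 in 5xFAD mice (background 27.8%, 18% higher and 9.72% lower), which shares no library with it but was fitted with the same spread, called 66 of the 83 lower and 0 higher, and 36 of the 49 higher and 2 lower. At 9 months H2-DMa fell by 3.78 on the log2 scale (edgeR quasi-likelihood test, adjusted p = 7.1e-05), Aif1 fell by 4.29 (adjusted p = 8.0e-07), Apoe rose by 6.43 (adjusted p = 1.4e-06) and Pf4 rose by 7.71 (adjusted p = 4.3e-06). For most of these genes the 9-month sign was the germline one of 3 months and not the conditional one. At 9 months, microglial markers took 63690 to 65270 CPM in WT and 3672 to 9038 CPM in IRF8KO. They took 53150 to 60160 CPM in 5xFAD and 6977 to 8520 CPM in 5xFAD/IRF8KO. Neutrophil markers took 0.174 to 3.30 CPM in WT and 74010 to 104800 CPM in IRF8KO. The part of cell content in these signs was not tested. The counts over all genes were 2266 to 2727 without 1 of the 3 WT libraries (lowest without replicate 1), against 4136, and 2325 to 2691 without 1 of the 3 5xFAD libraries (lowest without replicate 2), against 4054. At 9 months, Y-linked genes without Xist passed 10 CPM in 3 WT and 1 IRF8KO libraries, and the part of sex was not tested. Cst7 was an exception between the 9-month comparisons, as it was 3.75 higher (log2) in IRF8KO than in WT (adjusted p = 7.2e-05) and fell by 1.60 with Irf8 loss in 5xFAD (adjusted p = 0.0089).

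**Figure D4:**
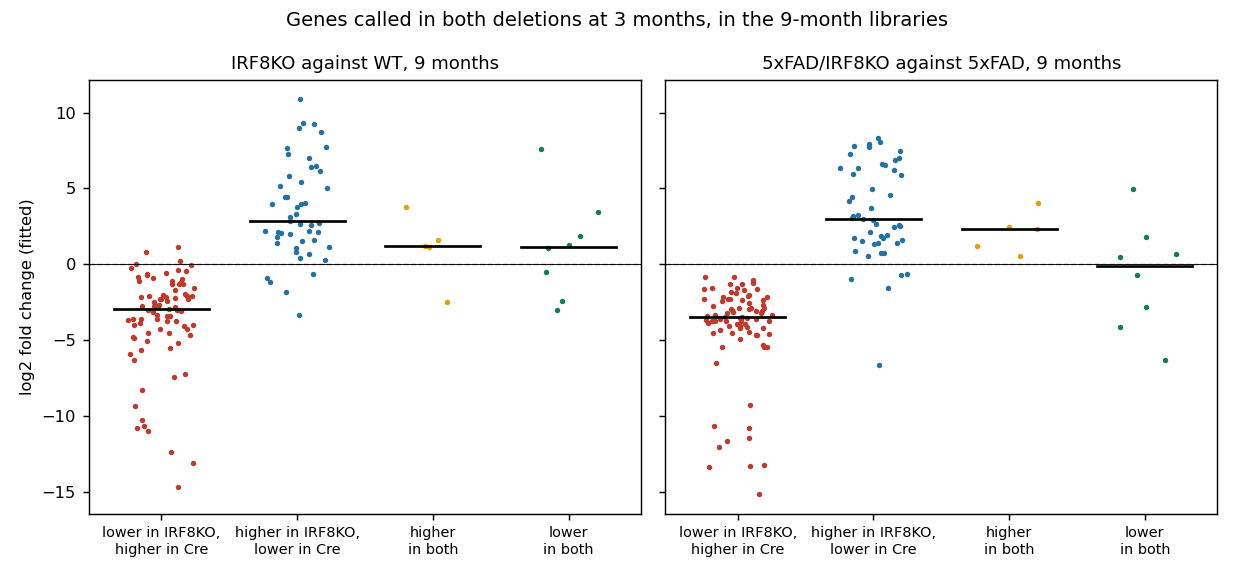
Fitted log2 fold change at 9 months of the genes called in both deletions at 3 months, for IRF8KO against WT (left) and 5xFAD/IRF8KO against 5xFAD (right); black bars are medians and the dashed line is the median of all members. The 83 genes lower in IRF8KO at 3 months have medians of -2.93 and -3.48, and the 49 higher ones 2.84 and 2.96.

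Genes called only in the conditional effect were also read at 9 months, where 18.2% of all members rose and 8.89% fell. Of the 357 higher in Cre, 111 fell (31.1%) and 16 rose (4.48%) at 9 months, with a median of -1.38. Of the 276 tested among those lower in Cre, 85 rose (30.8%) and 26 fell (9.42%), with a median of 0.94. In 5xFAD the counts were 119 lower and 10 higher of the 357, and 58 higher (21%) and 21 lower (7.61%) of the 276. All members had 16% higher and 9.42% lower in 5xFAD, so the shares of the 276 were near that background. These genes were not called in the germline effect at 3 months, and the sort did not use the 9-month libraries. Over all members, the conditional log2 values were negatively related to the germline effect at 9 months (r -0.269 over 10316 genes) and to Irf8 loss in 5xFAD (r -0.27), where the genes share libraries. The germline effects at 3 and 9 months were not positively related over all members either (r -0.207), and of the 344 tested genes lower only in IRF8KO at 3 months, 166 rose and 61 fell at 9 months, while in 5xFAD 89 rose and 94 fell. Of the 252 higher only in IRF8KO at 3 months, 73 rose and 15 fell at 9 months, and in 5xFAD 148 rose and 0 fell. WT libraries held 8916 to 54200 CPM of neutrophil markers at 3 months and 0.174 to 3.30 CPM at 9 months, while IRF8KO held 81230 to 176800 and 74010 to 104800 CPM. The part of these cells in the germline effects was not tested. The Batf3 knockout (background 3.83%, 1.41% higher and 2.42% lower) called 5 of the 83 higher and 6 lower, and 3 of the 44 tested among the 49 higher and 1 lower.

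Each library was placed on a scale between the 9-month groups. From the members, 205 genes that fell and 240 that rose in both 9-month comparisons by at least 2 on the log2 scale were taken, with at least 5 CPM in the WT of the Batf3 experiment, and each library got the median position over them, with 0 for the mean of WT and 1 for the mean of IRF8KO at 9 months. This set was chosen after the values were seen. The ends of the scale also differed in cell markers. From WT to IRF8KO at 9 months, microglial markers went from 63690 to 65270 CPM to 3672 to 9038 CPM, oligodendrocyte markers from 237 to 273 CPM to 7298 to 11160 CPM, and red blood cell markers from 0.174 to 52.9 CPM to 23940 to 158300 CPM. The part of these cells in the positions was not tested. On the 205 genes, the flox libraries stood at 0.19 to 0.23, Cre replicate 1 at 0.28, Cre replicates 2 to 4 at 0.03 to 0.11, WT at 3 months at 0.22 to 0.38 and IRF8KO at 3 months at 0.59 to 0.80. On the 240 genes, flox stood at 0.32 to 0.34, Cre replicate 1 at 0.35, Cre replicates 2 to 4 at 0.26 to 0.28, WT at 0.67 to 0.77 and IRF8KO at 0.93 to 1.06. On both sets the libraries labelled Cre, other than replicate 1, lay on the WT side of the flox libraries, and the distance between them was smaller than that between WT and IRF8KO. Of the 205 genes, 82 were higher and 6 lower in the conditional effect, and 0 higher and 91 lower in the germline effect at 3 months. Of the 240, 4 were higher and 25 lower in the conditional, and 50 higher and 14 lower in the germline effect. Of all 10535 members, 445 were higher and 340 lower in the conditional, and 306 higher and 438 lower in the germline effect.

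**Figure D5:**
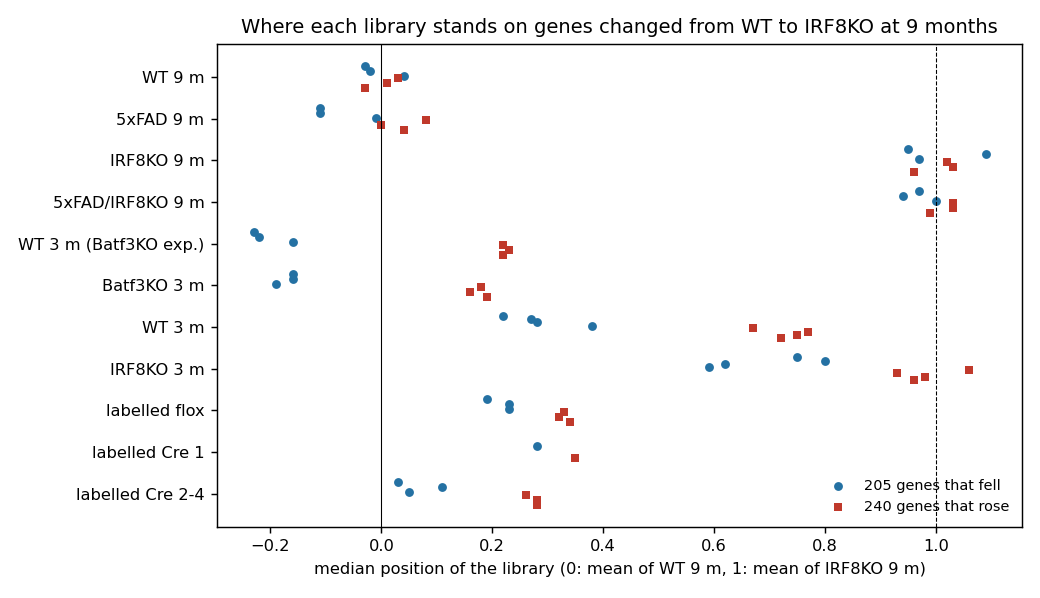
Median position of every library on genes that fell (blue circles) or rose (red squares) from WT to IRF8KO at 9 months, where 0 is the mean of WT and 1 the mean of IRF8KO at 9 months. Cre replicates 2 to 4 lie at 0.03 to 0.11 on the genes that fell, below the flox libraries at 0.19 to 0.23 and Cre replicate 1 at 0.28.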

How the data were processed

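RNA was measured in microglia sorted from dissociated mouse brain into TRIzol, with SMART-Seq v4 cDNA and Nextera XT libraries, per the labels' protocols. The authors deposited whole-number counts of reads per gene with no normalization. The submitters' processing notes name STAR 2.5.2b, Picard 2.17.11, bcl2fastq, Subread, featureCounts and mm10, without roles. The count ignoring strand was used, so overlapping and antisense genes are uncertain, and there are no molecular identifiers, so floors cover counting error only. Of 54146 gene identifiers, 54079 were found in GENCODE M21 (GRCm38) ignoring the version, which gave symbols and coordinates.

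Samples were grouped by title. Genes were filtered with filterByExpr and scaled with TMM over the 14 libraries of 4 groups, and tested with edgeR 4.0.16 in R 4.3.3 (glmQLFit, glmQLFTest). The difference came from 1 model of the 4 groups, and each effect from its own experiment's libraries. Standard errors come from the F statistic. The 12 libraries at 9 months formed 1 model. Printed levels are CPM with TMM factors over all 33 libraries. A group with no counts was set to 3 counts over the group for folds, which are then lower bounds.

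Members, lists and tests were chosen with earlier results of these data known. Named genes were Irf8, Batf3, a fixed set of microglial genes, and, among genes with known symbols and no overlap between groups, the 5 with the largest smaller effect per direction of each class called in both, and the 4 per class called in 1 effect with the largest difference. Some genes that these rules name are not reported here. Other genes named belong to the lists and were chosen after their values were seen. The alternatives were other scalings, filters, minima and tools (DESeq2 1.42.0, limma 3.58.1), a replicate block, and leaving out each library. The fits were tested on simulated data.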

Additional observations from a re-analysis of the deposited data

Results flagged for a closer look

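Among 48 named genes, 136 groups of 4 libraries were examined for a single library far from the other 3 by the 95% critical value of Dixon's test, and 29 groups (21.3%) held such a library, where chance gives about 1 in 20. Most of these genes were chosen for separation between the groups and all share the same libraries, so that share is no test. Of these, 15 were the library labelled Cre replicate 1, which the comparison leaves out. Its levels in CPM were Cnn2 9.77, Cck 449, Irf8 1125, Htra3 335, Clec4n 3.46, Pf4 146, Siglec1 8.82, Ch25h 130, Oas2 4.17, Cd300ld 22.4, Ifitm2 13.2, Apoe 11670, Cst7 119, Axl 1.19 and Irf7 22.3, and in each of these genes it stood apart from the libraries labelled Cre replicates 2 to 4.

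In the germline experiment the distant libraries were spread over replicates. The levels in WT replicate 4 were, in CPM, Cck 177, Ndst3 19.6, Tmem119 1200, Sall1 91.8 and Tgfbr1 852. The levels in WT replicate 2 were, in CPM, Oas2 8.78, Cd300ld 64.1 and Ifit3 53.5. In WT replicate 1 it was Tnfrsf17 61.9 CPM. In WT replicate 3 it was Htra3 24.9 CPM. The levels in IRF8KO replicate 2 were, in CPM, Cst7 157 and Tgfbr1 223. In IRF8KO replicate 3 it was Itgax 1.15 CPM. In IRF8KO replicate 4 it was Klk8 1.63 CPM. 

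The 2 deletions differed in effect for 28 of the 48 named genes (edgeR quasi-likelihood test of the difference, adjusted p under 0.05). As the sort used these values, they are descriptions. The log2 difference, conditional minus germline, was positive for Klk8 11.22, H2-DMa 8.11, Batf3 9.16, P2ry12 3.75, Cx3cr1 2.16, Sall1 5.88, Siglech 2.39 and Aif1 6.25. It was negative for Cck -3.1, Htra3 -8.75, Pf4 -9.45, Apoc1 -8.49, Ch25h -10.35, Oas2 -8.06, Cd300ld -8.03, Ifitm2 -6.82, Apoe -6.33, Cst7 -4.47 and Csf1 -4.14. For genes with a group at 0 counts the difference is a bound in size computed from 3 counts, positive for Spint1 14.48, Upk1b 14.36, Tnfrsf17 11.15, Adamts16 7.08, Mrc2 7.29, Dcx 5.59 and Ndst3 5.54 and negative for Clec4n -9.7 and Siglec1 -11.65.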

How the results depend on the processing

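Counts below are members called, beside 907 for the difference, 785 for the conditional effect, 744 for the germline effect, 13 for the same and 132 for the opposite direction. With the library labelled Cre replicate 1 the conditional, same and opposite counts were 0, and the signs turned for Cck difference (1.133), Irf8 difference (0.3535), Spp1 difference (-0.0716) and Ndst3 conditional (0.004196). DESeq2 gave 1480 for the difference, 1739 for germline, 33 same and 262 opposite, and 842 for the Batf3 effect. One spread from the 4 groups gave 80 conditional, 2403 germline, 4 same and 44 opposite. Without a filter there were 24 same and 998 Batf3 genes, and a minimum of 20 CPM left 5669 members. Deviations of same-numbered libraries in the 4 groups had r of -0.0811 to 0.301, and those of differently numbered ones -0.311 to 0.23. Whether the numbers pair the samples was not settled. With the number as a replicate block the difference was called in 106 genes, 104 of them among the 907, same in 27 and Batf3 in 216. In that fit the Itgax difference was -0.1752 and the Cd74 difference -0.3336. Voom with quality weights gave -0.4672 and -0.1314 for these.

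Leaving out each library gave 430 to 1391 for the difference (lowest without flox replicate 1, highest without WT replicate 4), 540 to 1122 for conditional, 192 to 854 for germline (lowest without IRF8KO replicate 1), 3 to 20 for same and 62 to 162 for opposite, with all 132 signs kept. The 9-month count ranged from 2266 to 4576, that in 5xFAD from 2325 to 4598 and that for Batf3 from 219 to 596. Of named genes, none of them called in that effect in the reported fit, the ranges that crossed 0 were Cnn2 difference -0.6396 to 0.01386, Lpl difference -0.4293 to 0.9337, Irf8 difference -0.2617 to 0.06475, Itgax difference -0.4755 to 0.7696, Spp1 difference -0.2748 to 0.8684, Cd74 difference -0.744 to 1.003, Tgfbr1 difference -0.1428 to 0.5854 and Ndst3 conditional -0.3234 to 0.0007665. The causes were not tested. The median difference of all members was 0.08 to 0.25 across these settings. Among the 14 libraries of the 4 groups, depth was lowest in WT replicate 1 at 2305663 counts. Over the whole series it was lowest in WT replicate 3 at 9 months, at 605376 counts. Low genes are the least precise in such libraries.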
